A study of Mus musculus with 7 samples.

Results

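The collagen chain genes are the genes that encode the alpha chains of collagen proteins. They were taken as every row of the deposited count table whose symbol has the form Col, a type number, a, a chain number, and whose counts summed to 10 or more over the libraries. This gave 44 of the 21878 genes in the table. By the textbook class of their protein, 11 were fibrillar chains, 6 were basement membrane chains, 9 were fibril-associated (FACIT) chains and 18 were other chains. The libraries hold RNA of the abdominal aorta of male C57BL/6 mice, 8 weeks old per the labels, that received angiotensin II (Ang II) for up to 28 days. The 3 libraries named ApoE here carry the label ApoE-/-, and the 4 named DKO carry the label ApoE-/-Nur77-/-. By these labels both groups lack ApoE and received the hormone, and they differ in Nur77, a nuclear receptor encoded by Nr4a1. The reads of the targeted genes, given below, showed a difference that the labels do not name: Apoe was 7.73 times lower in DKO, while Nr4a1 overlapped between the groups. The reason for this was not tested. The libraries are therefore compared by their labels, and no difference is assigned to Nur77. Neither the deleted part of either gene, nor the day on which each aorta was taken, nor whether each library came from its own mouse is stated in the labels. A p-value here measures the spread between these libraries.

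Collagen chains wind around each other in a helix inside the endoplasmic reticulum, where prolines and lysines are hydroxylated, before the molecule is secreted, trimmed and crosslinked. Fibrillar collagens give the media and adventitia of an artery their tensile strength, type IV chains form the network of basement membranes around smooth muscle cells and under the endothelium, and FACITs sit on the surface of fibrils. In an aorta exposed to Ang II, which can dilate and dissect, collagen made by smooth muscle cells and fibroblasts bears the load once elastin is broken.

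Depth was similar in all 7 libraries, from 19295287 to 21727192 counts. Levels of 1 gene across libraries are given as CPM (reads of the gene among all counted reads, after TMM scaling), and as the deposited FPKM, which are per gene length, where different genes are compared. Apoe itself had 184 to 250.3 CPM in the ApoE libraries and 18.3 to 34.7 CPM in the DKO libraries (log2 fold change -2.95, SE 0.23; edgeR adjusted p = 0.0227). Nr4a1 had 56.4 to 193 CPM against 46.2 to 92.7 CPM, with groups that overlapped (edgeR adjusted p = 0.360). The groups thus did not have the same Apoe level, and Nr4a1 was still read in all 4 DKO libraries. Since the deleted parts are not known, these reads cannot show which alleles each library carries, and ApoE and DKO below mean libraries labelled so. Atrial cardiomyocyte genes summed to 385 CPM in ApoE 2 and 1387 CPM in ApoE 3, against 21.4 to 49.2 CPM in the other 5 libraries, and 4 of the 8 (Myl7, Sln, Nppa and Myh6) were at 0 in at least 1 library. Contractile smooth muscle genes (8, Acta2 and Myh11 among them) were abundant in every library, with summed levels of 15331 to 23887 CPM in ApoE and 8078 to 29249 CPM in DKO. They were lowest in DKO 1 and highest in DKO 4. The fitted change was negative for all 8 (median log2 fold change -0.27), with summed levels that overlapped between the groups. Adventitial fibroblast genes (10) summed to 8066 to 9852 CPM in ApoE and 5318 to 6562 CPM in DKO, and white adipocyte genes (8) to 5299 to 8360 CPM against 2561 to 3876 CPM. The fitted change was negative for 8 of the 10 and for all 8. Brown adipocyte genes (6) summed to 673 to 1966 CPM in ApoE and 260.4 to 601 CPM in DKO, with 6 of 6 negative. Macrophage genes (8) summed to 2077 to 3160 CPM against 2253 to 4586 CPM, with 7 positive, and T cell genes (6) to 7.20 to 21.1 CPM against 17.4 to 43.4 CPM, with all 6 positive. The part of these differences in the collagen results was not tested. In bulk RNA, fewer cells of a type and less RNA per cell cannot be told apart.

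The sequences before 5 members show what lies upstream of genes that the results turn on. They are the 250 bases before the annotated start, or for Col4a2 a stretch of 30 bases that begins 48 bases before it, printed 5' to 3' from RefSeq on GRCm38.p6. Capitals mark the TATA box (TATAAA), the CCAAT box (letters as named) and the GC box (GGGCGG), each searched on both strands. CCGCCC is thus a GC box read on the other strand. Col1a2 (chr6:4505368-4505617, plus strand) and Col3a1 (chr1:45311288-45311537, plus strand) are shown because they are among the most abundant members. Col8a1 (chr16:57754738-57754987, minus strand) and Col10a1 (chr10:34389731-34389980, plus strand) are shown as short-chain members with a wide spread between DKO libraries. The Col4a2 stretch (chr8:11312757-11312786, plus strand) is shown because it lies upstream of the Col4a2 start and inside the annotated span of Col4a1, just outside the overlap of both genes.
Col1a2: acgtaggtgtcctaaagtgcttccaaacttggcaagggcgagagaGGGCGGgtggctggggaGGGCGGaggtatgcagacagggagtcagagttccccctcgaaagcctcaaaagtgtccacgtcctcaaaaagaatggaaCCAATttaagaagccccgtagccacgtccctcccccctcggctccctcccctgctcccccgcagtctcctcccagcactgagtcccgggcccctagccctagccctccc
Col3a1: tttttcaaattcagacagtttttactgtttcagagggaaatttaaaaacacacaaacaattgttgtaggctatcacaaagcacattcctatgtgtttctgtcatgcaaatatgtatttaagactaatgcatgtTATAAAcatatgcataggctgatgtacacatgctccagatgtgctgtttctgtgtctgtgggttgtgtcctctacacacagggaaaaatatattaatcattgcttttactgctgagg
Col8a1: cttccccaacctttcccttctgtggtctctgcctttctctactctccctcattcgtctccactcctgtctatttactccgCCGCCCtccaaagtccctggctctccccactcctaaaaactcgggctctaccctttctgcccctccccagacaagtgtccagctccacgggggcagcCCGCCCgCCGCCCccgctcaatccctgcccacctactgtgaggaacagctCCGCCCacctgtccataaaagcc
Col10a1: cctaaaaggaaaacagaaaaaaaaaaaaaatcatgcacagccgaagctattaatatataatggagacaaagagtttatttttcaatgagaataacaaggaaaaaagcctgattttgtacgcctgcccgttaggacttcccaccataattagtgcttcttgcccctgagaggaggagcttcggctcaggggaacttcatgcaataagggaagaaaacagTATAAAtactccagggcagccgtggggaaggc
Col4a2: CCGCCCgaggagctccCCAATttgttggcg
Col1a2 had a CCAAT match 109 bases before the start and GGGCGG matches at 188 and 205 bases, with no TATAAA in the window. Col10a1 had TATAAA at 32 bases, where a TATA box usually lies, while the match in Col3a1 lay at 117 bases. Col8a1 had 4 GC boxes and no TATAAA. Of 38 RefSeq windows of 250 bases that covered 35 of the 44 members, 57.9% held a GC box, against 32.7% of all 32851 windows of that length. A CCAAT match was in 34.2% against 33.8% and TATAAA in 13.2% against 12.4%. TGANTCA, the AP-1 motif, was in 2.63% (Col6a1) against 6.75%.

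Nur77 binds the NBRE, AAAGGTCA, as a monomer. On either strand this motif was in the window of 2 members, Col23a1 and Col24a1, which is 5.26% of the member windows against 1.34% of all windows. The 30 bases around it (chr11:51289692-51289721 and chr3:145292321-145292350, both plus strand) are shown with the motif in capitals because it is the motif of the factor named in the DKO label. The Col23a1 window precedes a RefSeq transcript start that lies inside the gene, so its stretch falls after the first annotated base of the gene.
Col23a1: gcaagtgtcagAAAGGTCAatctacaagct
Col24a1: aaggggtggcaAAAGGTCActtgagagctc
Col23a1, a transmembrane collagen, had 16.9, 17.3 and 13.4 CPM in ApoE 1 to 3 and 16.4, 13.2, 11.3 and 13.5 CPM in DKO 1 to 4. Col24a1, a minor fibrillar chain, had 1.39, 4.37 and 0.709 CPM in ApoE against 4.88, 6.42, 3.33 and 2.86 CPM in DKO. Both had groups that overlapped, with log2 fold changes of -0.22 (SE 0.16) and 1.01 (SE 0.62) and edgeR adjusted p of 0.465 and 0.391. A match is a description of the letters and not a binding site.

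The members took 3.38% to 3.60% of all counts in the ApoE libraries and 4.78%, 6.20%, 4.18% and 3.44% in DKO 1 to 4. Summed over the members, FPKM was 4443, 4397 and 4074 in ApoE 1 to 3 and 5938, 7699, 5099 and 4031 in DKO 1 to 4. DKO 1, DKO 2 and DKO 3 were above every ApoE library, and DKO 4 was below them all. Types I and III (Col1a1, Col1a2 and Col3a1) supplied most of this sum, with 69.4%, 74.6% and 70.5% in ApoE and 73.8%, 77.2%, 71.8% and 62.9% in DKO.

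Per gene length, Col1a1 had the highest mean of the members in both groups, with 1138 ± 13.1 FPKM (SD, n = 3) in ApoE and 1491 ± 551 FPKM (SD, n = 4) in DKO. Col3a1 (982 ± 189.6 FPKM against 1342 ± 391 FPKM) and Col1a2 (958 ± 15.4 FPKM against 1296 ± 488 FPKM) followed, with Col3a1 above Col1a1 in ApoE 2 and DKO 4, and were closer to each other than the spread within DKO. Next came Col4a2 (169.6 ± 35.4 FPKM against 219.9 ± 15.4 FPKM), Col4a1 (148 ± 27.4 FPKM against 222 ± 12.6 FPKM), Col18a1 (147 ± 31.4 FPKM against 171 ± 63.6 FPKM) and Col6a1 (147 ± 19.0 FPKM against 142 ± 13.0 FPKM), whose order in ApoE was within their spread.

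Of the 44 members, 41 passed the filter on low counts. No member had an edgeR adjusted p under 0.05 over the 14609 genes tested: 0 of 41 were called, where 0.0274% of all genes were. The smallest adjusted p was 0.165. At an unadjusted p under 0.05, 6 members were higher in DKO and 0 lower, where 8.00% of all genes were higher and 11.8% lower at that level. The 6 were Col4a1, Col15a1, Col5a3, Col9a1, Col6a5 and Col5a1. For fits that leave libraries out, the shares of all genes are not given, so the counts from them describe the members only. Without ApoE 3, DKO 1 or DKO 2 the count of higher members was 3 each time, and without DKO 4 it was 12, with 3 lower. With ApoE 2 and ApoE 3, the libraries with atrial transcripts, left out together, it was 1, but that fit has ApoE 1 alone against 4 DKO libraries and takes its spread from DKO only. Among the 41 tested, the CPM of the groups did not overlap for 5 members, all higher in DKO, where 7.08% of all genes were higher and 9.24% lower without overlap. DESeq2 called 3 members, Col4a1 (adjusted p = 0.00258), Col15a1 (0.0129) and Col9a1 (0.0175), all higher, where it called 8.03% of genes in either direction. limma voom with quality weights called Col5a3 higher (adjusted p = 0.0382) and Col4a4 lower (0.0297), where it called 16.2% of genes. Its weight was lowest for DKO 4 (0.406) and highest for DKO 3 (2.81), and DKO 4 was the DKO library in which Col4a4 was highest.

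The sign of the fitted change was positive for 31 of the 41 tested members and negative for 10. Their median log2 fold change was 0.32, against -0.02 for all genes tested, of which 47.4% were positive. By class the median was 0.49 for fibrillar chains (11 of 11 positive), 0.26 for FACITs (7 of 9), 0.17 for the other chains (10 of 15) and 0.00 for basement membrane chains (3 of 6). Against ApoE 1 alone, with ApoE 2 and ApoE 3 left out, 30 of 42 were positive, 11 of 11 fibrillar chains among them, with a median of 0.28, which describes the distance from 1 library. The genes of a class share libraries and cells, so these counts describe the list and are not independent trials.

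**Figure D1:**
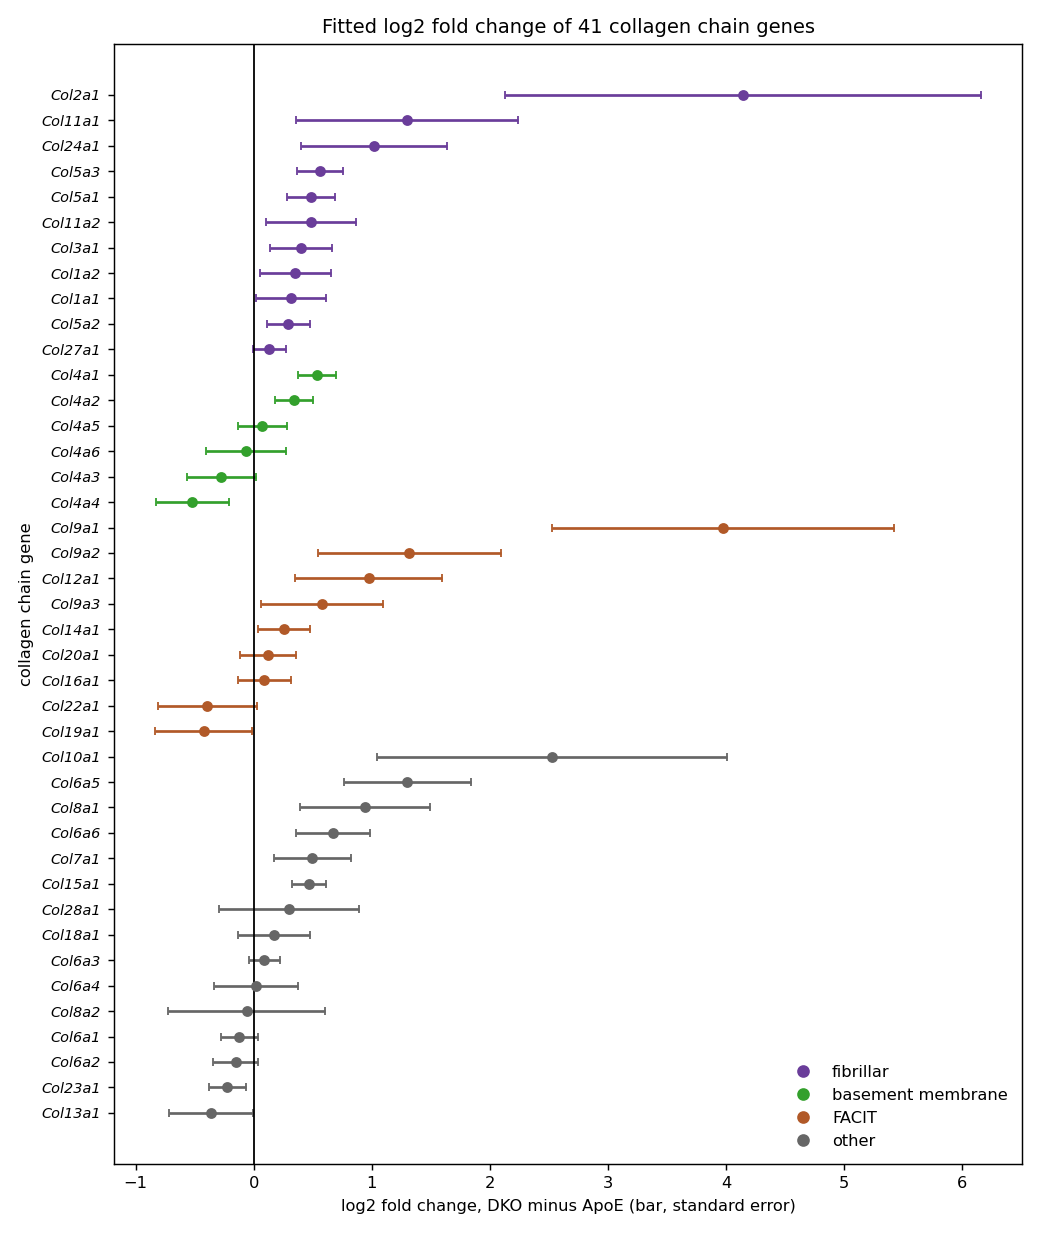
Log2 fold change, DKO minus ApoE, of the 41 collagen chain genes tested, 1 gene per row, coloured by class. Points are edgeR estimates and bars are standard errors; all 11 fibrillar points lie right of 0, and the basement membrane points lie on both sides.

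The type I and III chains build the bulk fibrils of the arterial wall. Col1a1 (chr11:94936224-94953042), the major chain of type I, had 8333, 7837 and 8692 CPM in ApoE 1 to 3 and 10229.9, 15573, 8899.5 and 6551 CPM in DKO 1 to 4. The ApoE libraries lay close together, while DKO 2 was 2.38 times DKO 4, and DKO 4 was below all 3 ApoE libraries. This gave a log2 fold change of 0.32 (SE 0.29), with an edgeR adjusted p of 0.577. Col1a2 (chr6:4505618-4541543), its partner chain, had 6161, 5825 and 6243 CPM in ApoE and 8364, 11288, 6891 and 4469 CPM in DKO, in the same library order as Col1a1 within DKO. Its fitted change was 0.35 (SE 0.30; edgeR adjusted p = 0.543). Col3a1 (chr1:45311538-45349706), the chain of the thinner, extensible type III fibrils, had 7929, 9179 and 6800.4 CPM against 10861, 14613, 9191 and 7358 CPM. DKO 1, DKO 2 and DKO 3 were above every ApoE library and DKO 4 lay among them (0.40, SE 0.26; edgeR adjusted p = 0.430).

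Type V chains are built into type I fibrils, start their assembly and limit their diameter. Col5a1 (chr2:27886381-28039510) had 1056, 984 and 999 CPM in ApoE and 1384, 1955, 1193 and 1146 CPM in DKO. All 4 DKO libraries were above all 3 ApoE libraries, DKO 4 included (0.49, SE 0.20; unadjusted p = 0.045, edgeR adjusted p = 0.241). Col5a2 (chr1:45374331-45503282) had 1272, 1159 and 1242 CPM against 1658, 1874, 1267 and 1202 CPM, and its groups overlapped (0.29, SE 0.18; edgeR adjusted p = 0.398). Col5a3 (chr9:20770050-20815117), the least abundant type V chain, had 59.9, 67.4 and 54.8 CPM against 70.1, 118, 94.8 and 74.8 CPM. Every DKO library was higher than every ApoE library (0.56, SE 0.19; unadjusted p = 0.0212, edgeR adjusted p = 0.188).

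The remaining fibrillar chains were low by FPKM and are named here after their values were seen. Col11a1 (chr3:114030479-114220756), a type XI chain best known from cartilage and active fibroblasts, had 53.6, 37.7 and 49.9 CPM in ApoE and 126, 269, 61.0 and 6.95 CPM in DKO. DKO 2 was thus 38.7 times DKO 4, and the DKO libraries lay on both sides of the ApoE libraries (1.30, SE 0.94; edgeR adjusted p = 0.469). Col2a1 (chr15:97975602-98004724), the main collagen of cartilage, had 7.98, 2.94 and 1.58 CPM in ApoE and 286, 5.06, 3.46 and 1.69 CPM in DKO. Only DKO 1 was above the ApoE range, so that the log2 fold change of 4.15 (SE 2.02; edgeR adjusted p = 0.302) became -0.27 without that library. The summed chondrocyte genes (8, without collagens) were 738 CPM in DKO 1, inside the ApoE range of 454 to 888 CPM. Most of each of these sums was Comp, which is also on the fibril binding list. Comp had 583 CPM in DKO 1 and 383, 384 and 807 CPM in ApoE 1 to 3. Without Comp, the rest of the sum was higher in DKO 1 than in each ApoE library. In DKO 2 the rest was higher still (452 CPM in all, of which 238 CPM was Comp). In DKO 3 it lay inside the ApoE range (337 CPM, 258 CPM of it Comp), and in DKO 4 below that range (138 CPM, 94.8 CPM of it Comp). The rest does not show which of the other cartilage genes differed. Sox9, the cartilage regulator, was 8.47 CPM there against 3.47 to 7.53 CPM in ApoE. Of these 8 genes, 2 had at most 6 counts in any library: Matn1 was at 0 in ApoE 1 and ApoE 3 with 4 counts in DKO 1, and 3110079O15Rik was at 0 in DKO 2 and DKO 3 with 2 counts in DKO 1. Col27a1 (0.13, SE 0.14) and Col11a2 (0.49, SE 0.38) had groups that overlapped.

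**Figure D2:**
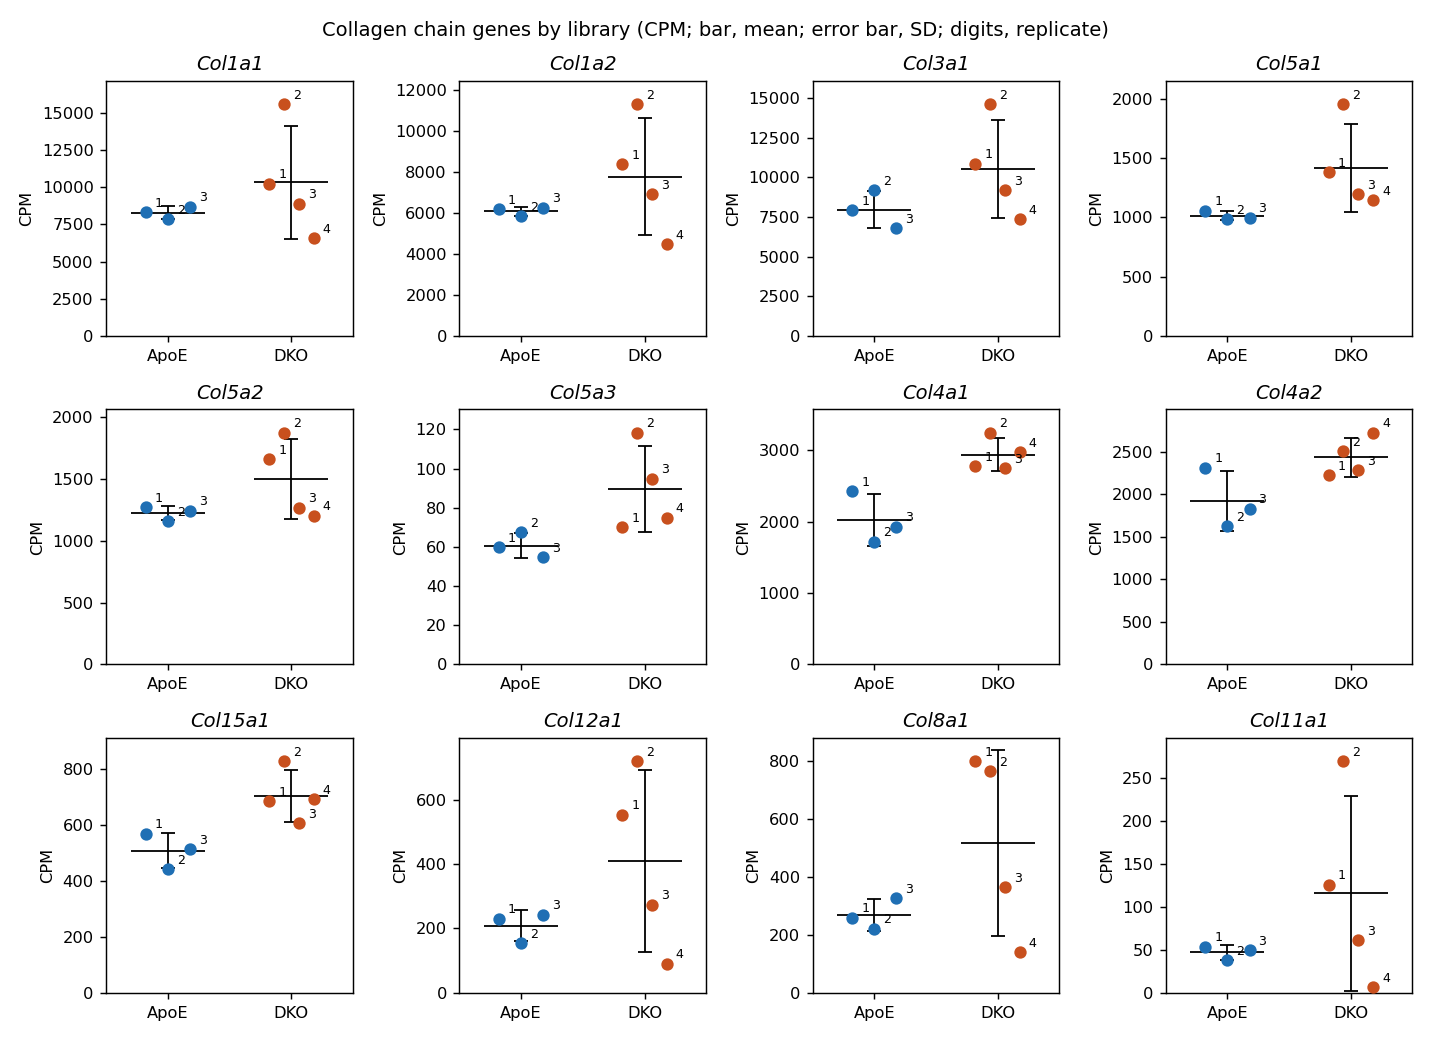
CPM of 12 collagen chain genes in each library, with the vertical axis from 0. Points are libraries marked with their replicate number, horizontal bars are group means and error bars are SD (n = 3 ApoE, n = 4 DKO); Col5a1, Col5a3, Col4a1 and Col15a1 do not overlap between groups, and DKO 2 and DKO 4 mark the ends of the DKO range for Col1a1.

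Basement membrane chains split into the ubiquitous pair and the minor chains. Col4a1 (chr8:11198423-11312889), which with Col4a2 forms the common type IV molecule, had 2430.3, 1718 and 1931 CPM in ApoE and 2779, 3248, 2753 and 2974 CPM in DKO. The lowest DKO library was above the highest ApoE library, and the 4 DKO values lay within 1.18 times of each other. The log2 fold change was 0.54 (SE 0.16), with an unadjusted p of 0.0114 and an edgeR adjusted p of 0.165, the smallest of any member. Col4a2 (chr8:11312805-11449287) had 2311, 1624 and 1832 CPM against 2226, 2505, 2284 and 2724 CPM. ApoE 1 lay inside the DKO range (0.34, SE 0.16; edgeR adjusted p = 0.295). The 2 genes lie head to head with annotated starts that overlap by 85 bases. It is not stated whether reads were counted by strand, so reads from the overlap may be shared.

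The minor type IV chains followed another library order. Col4a5 (chrX:141475370-141689236) had 290.1, 233 and 256 CPM in ApoE and 188, 268, 276 and 359 CPM in DKO. Col4a6 (chrX:141165403-141474095), its head-to-head neighbour at 1274 bases, had 151, 125 and 158 CPM against 77.9, 109, 132 and 232 CPM. Both were lowest in DKO 1 and highest in DKO 4, as were the summed smooth muscle genes. Their log2 fold changes were 0.07 (SE 0.21) and -0.07 (SE 0.34), with edgeR adjusted p of 0.883 and 0.931. The sign turned to -0.088 for Col4a5 without DKO 4, and to 0.15 and 0.040 for Col4a6 without DKO 1 and without DKO 2.

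Col4a3 and Col4a4, the chains of the kidney glomerular and lung basement membranes, lie head to head on chromosome 1 with an overlap of 114 bases and are named after their values were seen. Col4a4 had 32.8, 22.8 and 26.3 CPM in ApoE and 15.1, 14.4, 14.8 and 31.9 CPM in DKO. DKO 1, DKO 2 and DKO 3 were below every ApoE library and DKO 4 was level with the highest (-0.52, SE 0.31; edgeR adjusted p = 0.384). Col4a3 had 18.7, 13.1 and 16.3 CPM against 9.62, 11.2, 11.1 and 21.2 CPM and showed the same split (-0.27, SE 0.29; edgeR adjusted p = 0.630). Of the 6 basement membrane chains, 4 had their highest CPM in DKO 4, whereas 9 of 11 fibrillar chains were highest in DKO 2 and the other 2 in DKO 1.

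**Figure D3:**
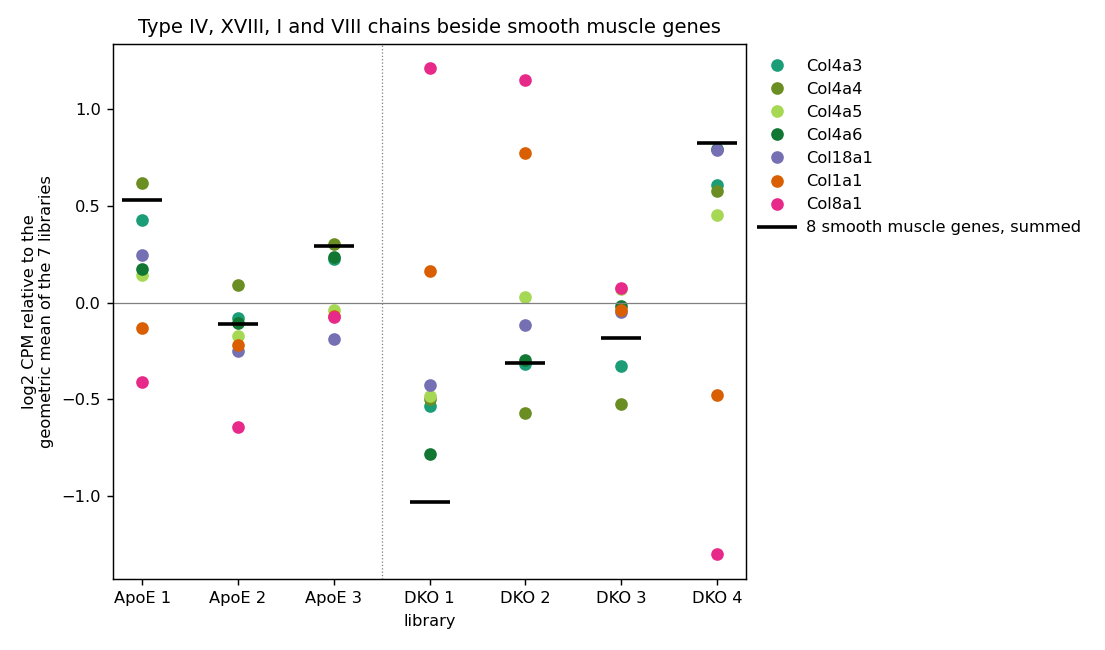
Log2 CPM of 7 collagen chain genes in each library relative to the geometric mean of the 7 libraries; black bars are the sum of 8 smooth muscle genes. The minor type IV chains and Col18a1 are highest in DKO 4 or ApoE 1, where the smooth muscle bars are also high, while Col1a1 and Col8a1 are lowest in DKO 4.

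FACITs have interrupted helices and link fibrils to each other and to other matrix. Col12a1 (chr9:79598987-79721141), found in tissue under tension, had 229.6, 153 and 242 CPM in ApoE and 553, 719, 274 and 90.4 CPM in DKO. DKO 2 was 7.95 times DKO 4, and the DKO libraries lay on both sides of the ApoE range (0.97, SE 0.62; edgeR adjusted p = 0.413). Col14a1 (chr15:55307644-55520803), the most abundant FACIT by FPKM, had 539.6, 677 and 554 CPM against 772, 926, 641 and 481 CPM, with overlap (0.26, SE 0.22; edgeR adjusted p = 0.551). Col16a1 had 232, 204 and 239 CPM against 275, 311, 217 and 156 CPM (0.09, SE 0.22). Its sign turned to -0.038 without DKO 2. Col20a1 differed from the other 3 in its order: it was highest in DKO 4, with 18.2, 18.8 and 23.1 CPM in ApoE and 15.5, 21.3, 19.1 and 31.4 CPM in DKO (0.12, SE 0.24, and -0.10 without DKO 4).

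Type IX collagen is the FACIT of cartilage fibrils. Col9a1 (chr1:24177589-24252738) was at the edge of detection, with 0.397, 0.138 and 0.218 CPM in ApoE, from 8, 3 and 4 counts, and 13.5, 1.73, 0.400 and 0.511 CPM in DKO. The groups did not overlap, though DKO 3 barely exceeded ApoE 1, with 9 counts against 8. The log2 fold change of 3.97 (SE 1.45; unadjusted p = 0.0273, edgeR adjusted p = 0.202) rested mostly on DKO 1, the library in which Col2a1 was also highest. Col9a2 had 2.92 CPM and Col9a3 5.27 CPM in DKO 1, their highest values, and neither passed at an unadjusted p under 0.05. Col19a1 and Col22a1 had negative changes (-0.42, SE 0.41, and -0.39, SE 0.42).

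Among the other chains, type VI forms beaded filaments near the cell surface. Col6a1 (chr10:76708792-76726044) had 1008, 865 and 1205 CPM in ApoE and 789, 1026, 957 and 999.7 CPM in DKO. Col6a2 had 994, 829.7 and 1232 CPM against 688, 1029.7, 919 and 1023 CPM, and Col6a3 had 1178, 945 and 1115 CPM against 1034, 1279, 1099.9 and 1173 CPM. Each of these 3 chains spanned at most 1.5 times within a group, with overlap and log2 fold changes of -0.12 (SE 0.15), -0.15 (SE 0.19) and 0.09 (SE 0.13). Without ApoE 3 the first 2 turned to 0.0091 and 0.0046, and with ApoE 2 and ApoE 3 left out Col6a3 turned to -0.042. Col6a5 (chr9:105856070-105962463), an alpha3-like type VI chain, had 41.3, 51.3 and 11.3 CPM against 71.4, 139, 80.1 and 50.5 CPM. DKO 4 lay just below ApoE 2, and ApoE 3 was lowest (1.30, SE 0.54; unadjusted p = 0.0445, edgeR adjusted p = 0.239). Its neighbours on chromosome 9, Col6a6 and Col6a4, had log2 fold changes of 0.67 (SE 0.32) and 0.02 (SE 0.36).

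The multiplexins of basement membrane zones carry endostatin-like fragments that can inhibit vessel growth. Col15a1 (chr4:47207655-47313167) had 569, 443 and 514 CPM in ApoE and 685, 829, 608 and 693 CPM in DKO. All DKO libraries were above all ApoE libraries (0.47, SE 0.14; unadjusted p = 0.0128, edgeR adjusted p = 0.167). Col18a1 (chr10:77052178-77166530) had 2228, 1582 and 1649 CPM against 1397, 1732, 1815 and 3252 CPM. It was highest in DKO 4 and lowest in DKO 1, the libraries where the smooth muscle genes were highest and lowest (0.17, SE 0.30, and -0.14 without DKO 4; edgeR adjusted p = 0.796).

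Short-chain collagens form hexagonal networks. Col8a1 (chr16:57624256-57754737), which vascular smooth muscle cells make after injury, had 259, 221 and 328 CPM in ApoE and 799.8, 766, 364 and 140.0 CPM in DKO. DKO 1 and DKO 2 were more than 2 times the highest ApoE library, DKO 3 just above it and DKO 4 below all (0.94, SE 0.55; edgeR adjusted p = 0.378). Col8a2 (chr4:126286794-126314330), its partner, had 27.7, 20.4 and 51.4 CPM against 49.4, 41.4, 31.0 and 5.11 CPM (-0.06, SE 0.66). Its sign turned to 0.40 without ApoE 3, to 0.29 without DKO 4 and to 0.033 with no scaling factor. Col10a1 (chr10:34389981-34397085), the collagen of hypertrophic cartilage, is named after its values were seen. It had 25.8, 1.65 and 1.20 CPM in ApoE and 82.5, 85.9, 51.5 and 0.818 CPM in DKO, so 3 DKO libraries were above every ApoE library and DKO 4 was below them (2.53, SE 1.48; edgeR adjusted p = 0.378).

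The rest of this class was low. Col7a1, the anchoring fibril chain, averaged 6.44 ± 2.46 CPM (SD, n = 3) in ApoE and 9.08 ± 2.30 CPM (SD, n = 4) in DKO (0.50, SE 0.33), and Col28a1 had 9.05 to 37.2 CPM against 12.5 to 45.1 CPM (0.30, SE 0.59). Col13a1, a transmembrane chain, had 2.38 to 2.94 CPM against 1.18 to 3.16 CPM (-0.36, SE 0.35). Col17a1, Col25a1 and Col26a1 did not pass the filter and had at most 15 counts in any library. Col25a1 had 2, 1 and 1 counts in ApoE and 13, 7, 13 and 2 counts in DKO, and its CPM did not overlap either, at 0.0460 to 0.0992 against 0.102 to 0.622. ApoE 1 and DKO 4 had the same 2 counts, so scaling alone set their CPM apart.

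Over the 40 members with a mean of at least 1 CPM, the highest library was DKO 2 for 20, DKO 1 for 7, DKO 4 for 7 and ApoE 3 for 3, and each of the other 3 libraries was highest for 1. The lowest library was DKO 4 for 11, ApoE 3 for 9, ApoE 2 for 8, DKO 1 for 7, DKO 2 for 3 and DKO 3 for 2. DKO 4 was thus the highest library for a set led by type IV chains. It was the lowest for Col1a1, Col1a2, Col11a1, Col27a1, Col12a1, Col14a1, Col16a1, Col8a1, Col8a2, Col10a1 and Col13a1.

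**Figure D4:**
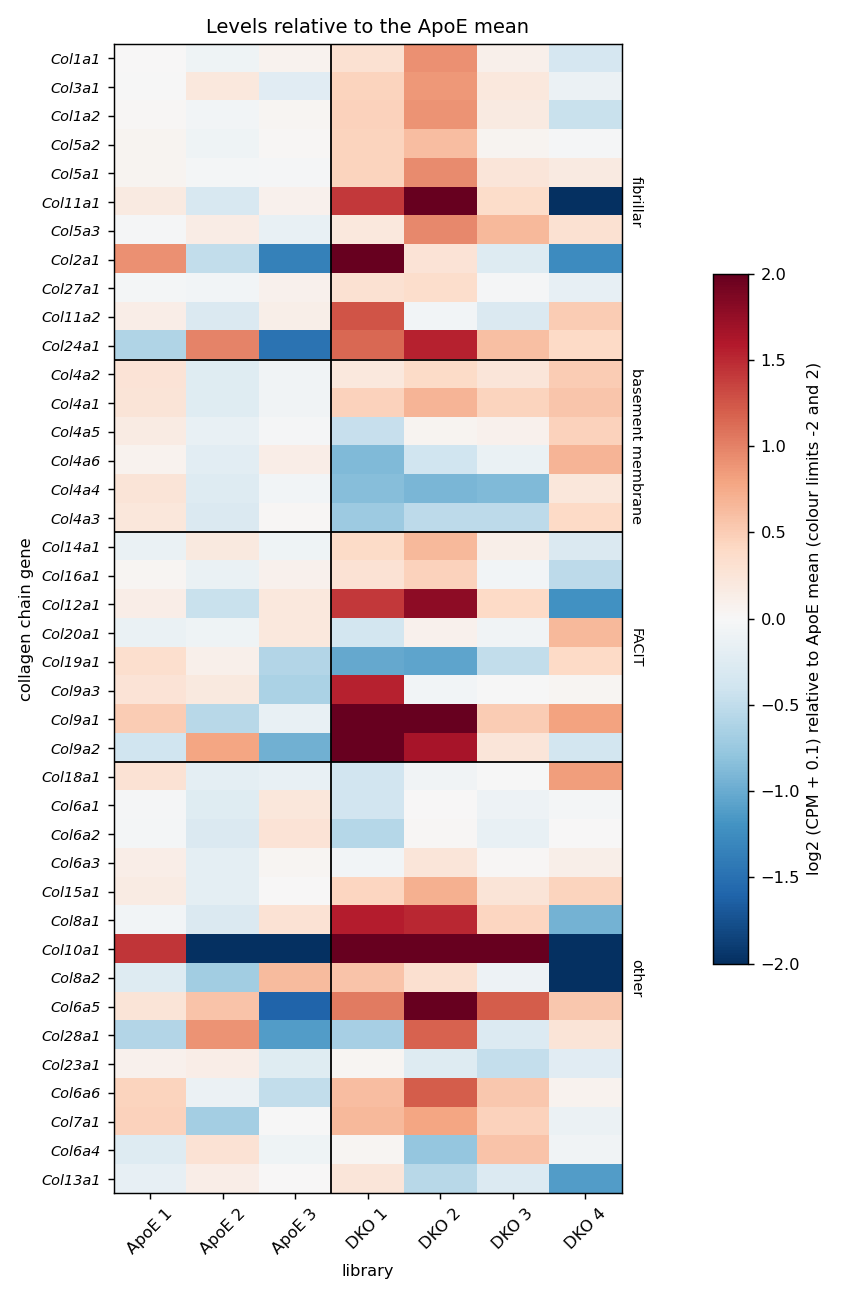
Log2 of CPM + 0.1 relative to the ApoE mean for 40 collagen chain genes (rows, grouped by class and ordered by FPKM) in the 7 libraries (columns), with colours limited to -2 and 2. DKO 2 is red for most fibrillar rows, DKO 4 is blue for Col11a1, Col12a1, Col8a2 and Col10a1, and DKO 1 to DKO 3 are blue for Col4a3 and Col4a4.

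Within a library, the ratio of 2 chains does not depend on depth, and 10 ratios of FPKM were compared by an exact two-sided permutation test, whose smallest possible p with 3 against 4 libraries is 0.0571. Col1a2 to Col1a1, the partners of type I, was 0.842 ± 0.013 (SD, n = 3) in ApoE and 0.864 ± 0.056 (SD, n = 4) in DKO (log2 difference 0.04; exact permutation p = 0.571, adjusted p = 0.635). It ran from 0.794 in DKO 4 to 0.924 in DKO 1, on both sides of the ApoE values of 0.837, 0.856 and 0.832.

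Of the 10 ratios, 3 did not overlap between groups and reached the smallest p the design allows. Col4a2 to Col4a1 was 1.17, 1.12 and 1.15 in ApoE and 0.960, 0.900, 0.999 and 1.11 in DKO, lower in all 4 (log2 difference -0.21; exact permutation p = 0.0571, adjusted p = 0.190 over the 10 ratios). Col8a2 to Col8a1 was 0.0989, 0.0815 and 0.137 in ApoE against 0.0564, 0.0484, 0.0758 and 0.0333 in DKO (-1.01; exact permutation p = 0.0571, adjusted p = 0.190). Here the decrease was present in DKO 4 as well, where both chains were lowest. Col6a3 to Col6a1 was 0.507, 0.496 and 0.412 against 0.582, 0.570, 0.508 and 0.514, higher by FPKM in all 4 DKO libraries, though DKO 3 was barely above ApoE 1 (0.21; exact permutation p = 0.0571, adjusted p = 0.190). In counts this ratio overlapped between the groups. DKO 3 had 24773 Col6a3 counts to 21558 Col6a1 counts, a smaller ratio than 23756 to 20335 in ApoE 1.

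The other ratios overlapped between groups. Col5a2 to Col5a1 differed by -0.19 on the log2 scale (exact permutation p = 0.114) and Col5a1 to Col1a1 by 0.19 (exact permutation p = 0.171). Col12a1 to Col1a1 ran from 0.00517 in DKO 4 to 0.0195 in DKO 1, on both sides of the ApoE values (0.38; exact permutation p = 0.514). Col14a1 to Col1a1, by contrast, stayed between 0.0400 and 0.0490 in DKO (-0.03; exact permutation p = 0.800, and 0.11 without ApoE 2 and 0.040 without DKO 2). Col3a1 to Col1a1 differed by 0.11 (exact permutation p = 0.571, and -0.026 without ApoE 3) and Col6a2 to Col6a1 by -0.05 (exact permutation p = 0.514).

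**Figure D5:**
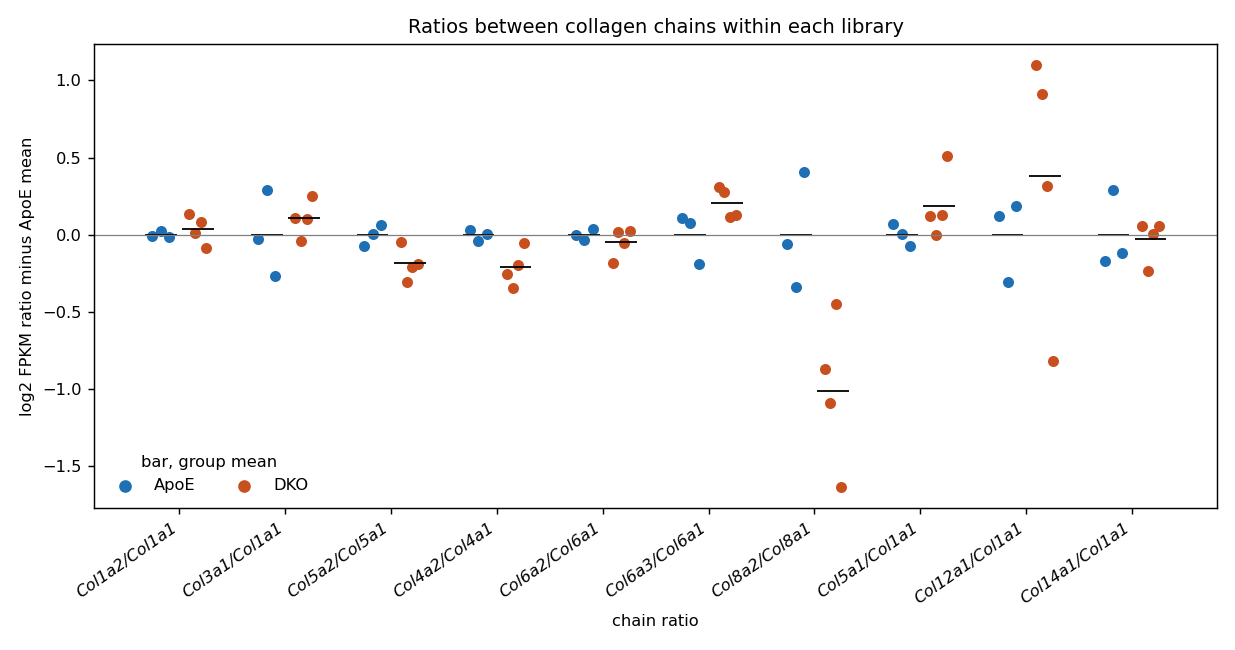
The 10 chain ratios (log2 of the FPKM ratio in a library minus the ApoE mean) in each library, with bars for group means. The DKO points lie wholly below ApoE for Col4a2/Col4a1 and Col8a2/Col8a1, wholly above for Col6a3/Col6a1, and are spread widest for Col12a1/Col1a1 and Col8a2/Col8a1.

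The make-up of the collagen transcript pool varied mainly between DKO libraries. Fibrillar chains made 74.2%, 79.2% and 75.3% of summed FPKM in ApoE 1 to 3 and 79.4%, 81.9%, 76.4% and 68.1% in DKO 1 to 4. Basement membrane chains made 9.73%, 7.05% and 8.03% against 7.60%, 6.42%, 9.15% and 12.9%, and the other non-FACIT chains 14.3%, 11.6% and 14.7% against 10.8%, 9.64%, 12.5% and 17.4%. FACITs held 1.62% to 2.27% in every library. DKO 4 had the smallest fibrillar and the largest basement membrane share of all libraries, and DKO 2 the reverse.

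Genes that make, process and read collagen were described from 7 lists with 77 genes, of which 71 were tested. Of these, 44 had a positive and 27 a negative change, with a median log2 fold change of 0.12. At an unadjusted p under 0.05, 10 were higher and 6 lower (8.00% and 11.8% of all genes), and edgeR called 0 after adjustment.

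Of 11 folding and secretion genes, 8 were positive (median 0.20) and 4 were higher at an unadjusted p under 0.05. Creb3l1, a transcription factor released by cleavage in the secretory pathway that drives collagen secretion genes, had 45.9, 43.0 and 41.4 CPM in ApoE and 57.3, 92.1, 93.5 and 84.3 CPM in DKO. All DKO libraries were above all ApoE libraries, DKO 4 among the high ones (0.91, SE 0.17; edgeR adjusted p = 0.122). Pdia3, a disulfide isomerase, had a log2 fold change of 0.35 (SE 0.10) and Sec23a, a COPII coat protein needed for procollagen export, one of 0.29 (SE 0.10), both without overlap. The 14 hydroxylation and glycosylation genes split into 6 positive and 8 negative (median -0.02). The lysyl hydroxylase Plod2 (0.48, SE 0.15) and the prolyl hydroxylase subunit P4ha1 (0.32, SE 0.12) were higher in all 4 DKO libraries, and the galactosyltransferase Colgalt2 was lower in all 4 (-0.72, SE 0.25).

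All 5 crosslinking genes were positive, with a median of 0.14. Lox, lysyl oxidase, had 400.3, 348 and 381 CPM in ApoE and 702, 928, 652 and 481 CPM in DKO, above the ApoE range in all 4 (0.88, SE 0.21; edgeR adjusted p = 0.152). Loxl2 had 133, 119 and 131 CPM against 170.5, 197, 136 and 144 CPM (0.34, SE 0.14; edgeR adjusted p = 0.237). Both were highest in DKO 2, as were most fibrillar chains. Of 8 propeptide removal genes, 3 were positive and 5 negative (median -0.07), and 0 passed at an unadjusted p under 0.05. Adamts14 (0.57, SE 0.29), Adamts3 (0.35, SE 0.16) and the enhancer Pcolce (-0.30, SE 0.14) had the smallest p.

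Proteins that bind fibrils split evenly, with 6 positive and 6 negative (median -0.19, and -0.0032 without ApoE 3), and 3 lower and 0 higher at an unadjusted p under 0.05. Dcn, decorin, a small proteoglycan that coats fibrils, had 2270.5, 2117 and 2223 CPM in ApoE and 1763, 1508, 1894 and 1397 CPM in DKO. It was lower in all 4 DKO libraries (-0.43, SE 0.14; edgeR adjusted p = 0.183), and it is also on the adventitial fibroblast list, whose summed level did not overlap between groups. Fmod, fibromodulin, had 402, 303 and 943 CPM against 276, 259, 262 and 88.5 CPM (-1.31, SE 0.50; edgeR adjusted p = 0.211), with ApoE 3 far above the rest. Tnxb, tenascin X, had a change of -0.61 (SE 0.25) with groups that overlapped.

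Of 10 breakdown and uptake genes, 8 were positive, and their median of 0.50 was the highest of the 7 lists. Mmp14, a membrane-bound collagenase, had 495, 413 and 276 CPM in ApoE and 1024, 1064, 848 and 385 CPM in DKO. DKO 1 to DKO 3 were above every ApoE library and DKO 4 lay inside their range (1.07, SE 0.37; edgeR adjusted p = 0.189). Pepd, the peptidase that splits proline-containing dipeptides, was -0.42 (SE 0.16). Of 11 collagen receptors, 8 were positive (median 0.19). Adgrg1, an adhesion receptor of type III collagen, was lower in all 4 DKO libraries (-0.40, SE 0.10; edgeR adjusted p = 0.155), and Cd44 was 0.49 (SE 0.17; edgeR adjusted p = 0.191) with overlap.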

How the data were processed

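Polyadenylated RNA was sequenced from strand-marking libraries, per the labels' protocols. The submitters' processing notes name Trimmomatic, HISAT2, HTSeq, Cufflinks and DESeq and the build GRCm38.p6, with no versions or roles. The gene counts are deposited as raw whole numbers. The deposited FPKM were scaled for gene length and depth by the authors. The members and gene lists were chosen with earlier results of these data known.

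Counts were filtered with filterByExpr (minimum count 10; 14609 of 21878 genes), scaled by TMM and compared by the quasi-likelihood test of edgeR, 3 against 4 libraries, no covariates, with Benjamini-Hochberg adjustment over all tested genes (threshold 0.05). Symbols turned into dates (27) were restored. Standard errors come from the log2 fold change divided by the root of F. Chain ratios used FPKM and exact two-sided permutation tests over 35 splits. Named members were, per class, the 4 with the highest mean FPKM and up to 4 with the smallest unadjusted p under 0.05, plus the chains of each ratio; per handling list, up to 3 with the smallest p. Coordinates and promoters are from RefSeq on GRCm38.p6. The fit was tested on simulated data. Alternatives were 18 other settings of normalization, filter, tool, unit and libraries. Software: R 4.3.3, DESeq2 1.42.0, edgeR 4.0.16, limma 3.58.1, scipy 1.17.1. Protein sequences were not analysed here.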

Additional observations from a re-analysis of the deposited data

Results flagged for a closer look

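Among the 4 DKO libraries, 1 library stood far from the others for 4 of the collagen chain genes given above with a value in every library. The measure was the gap to its nearest neighbour as a share of the group's range (above Dixon's 95% critical value). Chance alone gives about 1 such group in 20, so among the members screened some would arise by chance. Col2a1 (gap share 0.988) and Col9a1 (0.898), both cartilage chains, were high in DKO 1, at 286 and 13.5 CPM. Col9a3, another type IX chain that was not in this screen, also stood apart in DKO 1. It had 5.27 CPM there, against 1.69, 1.73 and 1.79 CPM in DKO 2 to 4. Col4a4 (0.958) and Col4a3 (0.868), neighbours on chromosome 1, were high in DKO 4, at 31.9 and 21.2 CPM, where the summed smooth muscle genes were also highest, at 29249 CPM. The part of the smooth muscle level in the latter pair was not tested.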

How the results depend on the processing

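Over the 18 alternative settings, 24 to 34 tested members had a positive change and the median of the members ran from 0.17 to 0.39, that of fibrillar chains from 0.31 to 0.55 and that of basement membrane chains from -0.28 to 0.19. The median of all genes stayed between -0.04 and 0.04. These sign counts were added after the data were seen. The number called was 0 except with DESeq2 (3) and limma voom with quality weights (2). For the counts at an unadjusted p under 0.05 that follow, the shares of all genes under the same settings are not given. The counts therefore describe the members and are not set against all genes. Members higher at an unadjusted p under 0.05 were 14 with the replicate block and 3 to 12 when single libraries were left out. With ApoE 2 and ApoE 3 left out together the count was 1, in a fit with 1 ApoE library, whose spread is assumed to be that of DKO. Lower members were 2 with the block, 4 with voom and 0 to 3 without single libraries. The replicate numbers did not pair the libraries: same-number correlations were -0.39, 0.70 and 0.00, and DKO 4 has no partner, so the block takes it out of the contrast.

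Signs turned for small changes. With the block, Col8a2 was 0.39, Col20a1 -0.11, Col4a5 -0.10 and Col18a1 -0.13. With ApoE 2 and ApoE 3 left out, Col8a2 was 0.20, Col4a5 -0.090, Col18a1 -0.12 and Col6a3 -0.042. With voom, Col8a2 was 0.083, Col4a5 -0.056 and Col18a1 -0.14, and with no scaling factor Col8a2 was 0.033. With single libraries left out, the range crossed 0 for Col8a2 (-0.34 to 0.40), Col20a1 (-0.10 to 0.28), Col4a5 (-0.088 to 0.24), Col18a1 (-0.14 to 0.34), Col6a1 (-0.23 to 0.0091), Col6a2 (-0.28 to 0.0046), Col4a6 (-0.44 to 0.15), Col2a1 (-0.27 to 5.02), Col16a1 (-0.038 to 0.25) and the log2 ratios Col14a1 to Col1a1 (-0.11 to 0.11) and Col3a1 to Col1a1 (-0.026 to 0.25). The median of fibril binding genes was -0.43 with no filter and ran from -0.25 to -0.0032 with single libraries left out. As shares of counts, which weight long genes more, fibrillar chains made 68.7% (ApoE) and 68.8% (DKO), basement membrane chains 12.2% and 13.3%, FACITs 2.93% and 2.98%, and other chains 16.2% and 14.9%. The cause of the turned signs was not tested. Depth limits Col9a1, Col17a1, Col25a1 and Col26a1, which had under 10 counts in most libraries.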
